A study of Homo sapiens with 32 samples.

Results

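The transcripts described here are those of 8 genes, SRRM2, SON, AHNAK, MKI67, BRCA2, KMT2D, BOD1L1 and PRRC2C, which were listed because each carries a very long coding exon, among 19881 protein-coding genes counted. In each gene this giant exon was taken as the longest coding exon of the canonical transcript, on the strand of the gene. Crosslinks were mapped by iCLIP, a method that fixes protein to RNA with UV light, pulls the protein down and reads the contact from the base where reverse transcription stopped. FlpIn-293 cells, which the labels list as FlipIn HEK293T, are a human embryonic kidney line that takes up transgenes at a fixed site. They expressed FLAG-tagged Alyref or Chtop (10 ng/mL tetracycline) or FLAG-tagged Nxf1 (5 ng/mL), in each case for 48 h, and Control cells carried FLAG alone. Anti-FLAG antibody was used for all 4 groups, so the factors were measured through induced transgenes and not through the endogenous proteins.

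Each group had 3 libraries, which were merged from 32 sequencing lane runs and counted once. A value is a tag, a deduplicated read assigned to its crosslinked base. Depth was 81307, 631704 and 603291 tags in Alyref replicates 1, 2 and 3, and 47052, 538844 and 429573 in Chtop. It was 8134, 119191 and 179346 in Nxf1 and 7017, 46628 and 36978 in Control, so replicate 1 was the shallowest of each group. A count of 0 allows up to 3 tags, which is 4.75 CPM (the tag count scaled to the total of its library) in Alyref replicate 2 but 369 CPM in Nxf1 replicate 1 and 428 CPM in Control replicate 1. Intervals and limits of this kind cover counting error only. The labels do not say that the libraries came from separate cultures, so p-values measure the spread between these libraries. Tags report bound RNA and not expression, so fewer transcripts and less binding per transcript cannot be told apart for a whole gene, whereas a ratio between exons of a single gene's transcript is free of transcript level. The run titles place all replicate 2 libraries on a different set of HiSeq sequencing lanes from replicates 1 and 3, and lane set refers to these. Replicates 1 and 2 of each group also had a MiSeq run, which replicate 3 lacked.

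TREX, of which Alyref and Chtop are part, links splicing and transcription to the export of mRNA, and Nxf1 is the receptor that carries the mRNA through the nuclear pore. Splicing leaves an exon junction complex just upstream of each junction, and this complex is known to contact Alyref. Much of a giant exon lies far from any junction, which allows tags within the exon to be compared with tags near its ends and with tags in the shorter exons of the same RNA.

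SRRM2, a serine- and arginine-rich scaffold of the spliceosome and of nuclear speckles, had a giant exon of 6701 nt, exon 11 of 15, at chr16:2811562-2818262 on the plus strand (hg19). This exon held 81.2% of the coding sequence. SON, another speckle scaffold that also helps weak introns to be spliced, had one of 5916 nt, exon 3 of 12, at chr21:34921782-34927697 on the plus strand, with 81.3% of its coding sequence. The giant exon of MKI67, which encodes the chromosome-coating proliferation antigen Ki-67, was exon 13 of 15 and spanned 6845 nt at chr10:129900843-129907687 on the minus strand. In BRCA2, the homologous recombination gene, it was exon 11 of 27, with 4932 nt at chr13:32910402-32915333 on the plus strand. BOD1L1, which protects stalled replication forks, had one of 6139 nt, exon 10 of 26, at chr4:13600570-13606708 on the minus strand.

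The longest coding exon was less extreme in KMT2D, a histone methyltransferase of enhancers, where exon 40 of 55 measured 2790 nt at chr12:49424958-49427747 on the minus strand and held 16.8% of the coding sequence. In PRRC2C, a protein of stress granules, exon 16 of 35 measured 2259 nt at chr1:171509110-171511368 on the plus strand and held 25.98%. AHNAK, a very large scaffold protein, departed from the description of an internal exon. Its giant exon was the last of 5, with a coding part of 17328 nt at chr11:62284219-62301546 on the minus strand, and no junction follows it. AHNAK therefore entered the 5′ end and whole-exon measures but not the 3′ end measure, which covered 7 genes. Only the coding part of its last exon was counted as the giant exon, and the noncoding part was counted with the other exons. Over the 8 genes the giant exons summed to 52910 nt, the other exons of the same transcripts to 49784 nt and intronic sequence to 370959 nt. The giant exons overlapped no other gene on their strand, although SRRM2, BRCA2, KMT2D and PRRC2C shared between 78 and 5101 nt elsewhere in their bodies with another annotated gene.

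Tags in the giant exons came mostly from SRRM2 and SON. The SRRM2 giant exon held 50, 411 and 358 tags in the Alyref libraries, 52, 987 and 900 in Chtop, 17, 41 and 29 in Nxf1 and 1, 10 and 7 in Control. Scaled to depth these were 620 ± 28.9 CPM for Alyref, 1677 ± 513 for Chtop and 182 ± 36.5 for Control (SD, n = 3), with every Alyref and Chtop library above every Control library and every Chtop library above every Alyref library. The Nxf1 libraries ranged from 162 to 2090 CPM, and the highest value belonged to the library of 8134 tags. SON followed with 21, 216 and 182 Alyref tags, 28, 430 and 411 Chtop tags, 8, 22 and 17 Nxf1 tags and 4, 7 and 1 Control tags. The SON giant exon averaged 301 ± 41.8 CPM in Alyref and 783 ± 181 in Chtop (SD, n = 3), again without overlap between these 2 factors. The Control libraries spread from 27.0 to 570 CPM, the highest on 4 tags, and overlapped Alyref. The lowest Chtop library, at 595 CPM, lay just above them.

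KMT2D came next per length. Its giant exon held 2, 42 and 45 Alyref tags and 5, 110 and 61 Chtop tags, against 2, 4 and 3 for Nxf1 and 1, 0 and 0 for Control. PRRC2C gave 2, 20 and 19 Alyref tags, 2, 50 and 50 Chtop tags, 0, 5 and 2 Nxf1 tags and 0, 1 and 1 Control tags. In MKI67 there were 1, 39 and 30 Alyref tags and 2, 61 and 57 Chtop tags, beside 2, 8 and 6 for Nxf1 and 1, 4 and 2 for Control. At their own depths the MKI67 Control libraries averaged 94.1 ± 44.8 CPM and Chtop 96.1 ± 47.5 (SD, n = 3), so the Chtop level of this exon did not exceed that of the Control.

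The longest exon was sparse. AHNAK held 3, 22 and 13 Alyref tags, 3, 64 and 65 Chtop tags, 1, 2 and 2 Nxf1 tags and 0, 3 and 1 Control tags over 17328 nt. BRCA2 held 0, 18 and 12 Alyref tags and 2, 18 and 12 Chtop tags, with 3 Nxf1 tags in all and none in Control. BOD1L1 had the fewest, with 18 Alyref, 29 Chtop, 1 Nxf1 and 1 Control tags over all libraries. Per length the mean densities in Chtop fell from 250 CPM per kb in SRRM2 through 132 in SON, 54.1 in KMT2D, 37.1 in PRRC2C and 14.04 in MKI67 to 7.02 in BRCA2, 6.42 in AHNAK and 5.26 in BOD1L1. The Chtop libraries of SRRM2 all lay above those of SON, and those of SON above those of KMT2D. From KMT2D downward each gene overlapped its neighbour in this order, and the SD over libraries of the last 3 was 1.49, 2.55 and 1.76. As in SRRM2 and SON, every Chtop library lay above every Alyref library in KMT2D, PRRC2C, AHNAK and, narrowly, BOD1L1. In MKI67 and BRCA2 the libraries of these factors overlapped. The share of all genes that separate in this way was not counted.

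**Figure D1:**
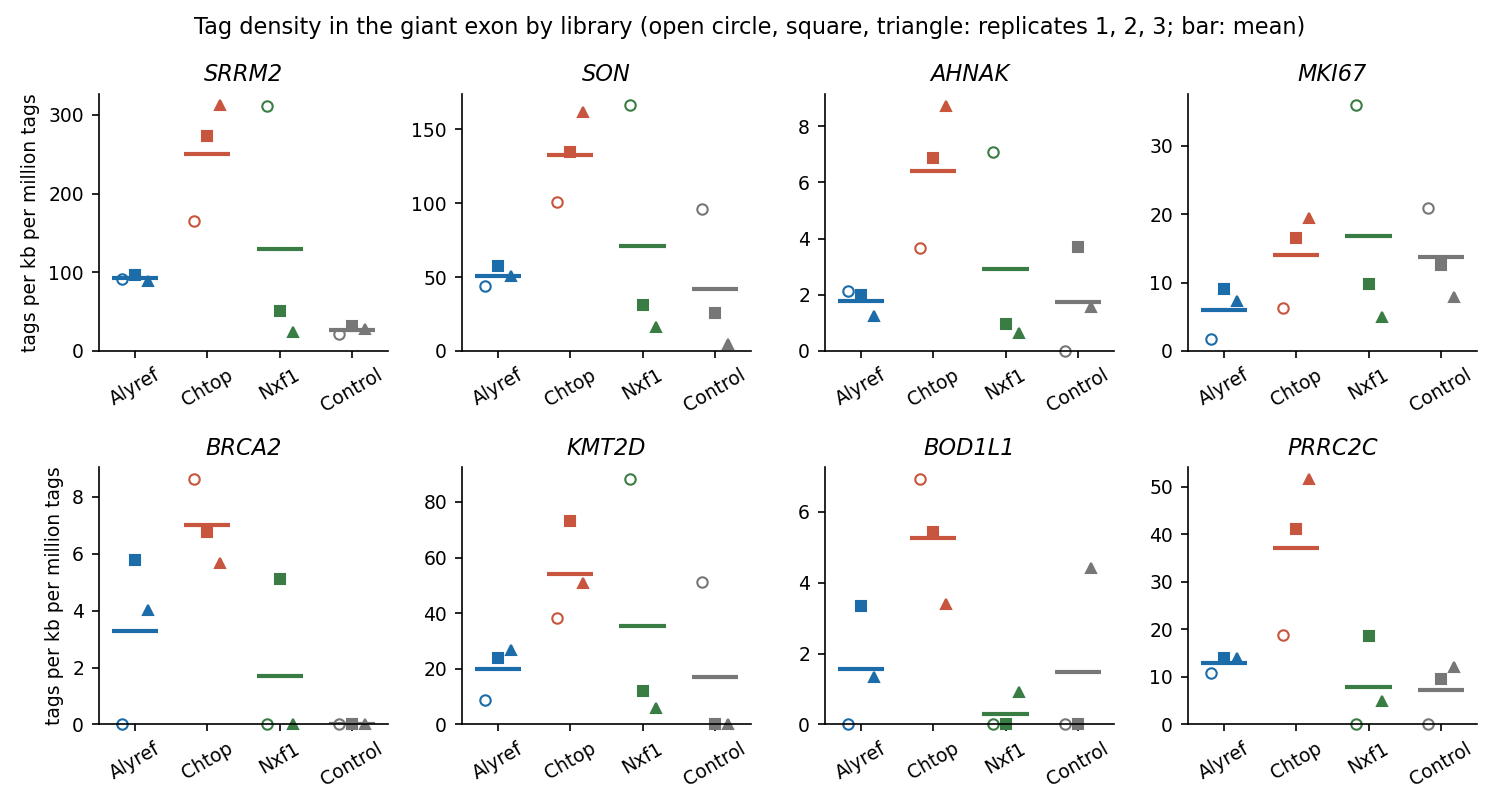
Tag density in the giant exon of each gene, in CPM per kb (linear axis from 0, own scale in each panel), for the 3 libraries of each group, with bars at the mean. Chtop libraries lie above Alyref libraries in every gene but MKI67 and BRCA2, in BOD1L1 by a narrow margin on few tags. In SRRM2, SON, AHNAK, MKI67 and KMT2D the highest Nxf1 value comes from the library of 8134 tags.

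Tags were then counted over whole genes, introns included, and tested with edgeR over 3240 genes with enough tags. BRCA2 and BOD1L1 had too few tags to enter, so 6 of the 8 genes were tested. Against Control, 4 of these 6 rose in Chtop and none fell, where 10.0% of all genes tested were called higher. KMT2D was higher by 3.05 ± 0.52 on the log2 scale (SE, adjusted p = 0.000382), SRRM2 by 2.67 ± 0.55 (adjusted p = 0.00179), SON by 2.28 ± 0.53 (adjusted p = 0.00493) and MKI67 by 1.63 ± 0.51 (adjusted p = 0.0289), by edgeR's quasi-likelihood test with Benjamini-Hochberg adjustment. AHNAK and PRRC2C differed from Control by 1.36 ± 0.66 and 0.57 ± 0.41 (SE) and did not pass. The median change over all genes was 0.22.

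The calls of KMT2D and SRRM2 held whichever library was left out. The SON call was lost without Control replicate 3 (adjusted p = 0.0718, edgeR), and the MKI67 call without Chtop replicate 3 or any 1 of the Control libraries, with adjusted p up to 0.162 (edgeR) and a change of 1.32 to 2.25 over all libraries left out. MKI67 was also uncalled with DESeq2 (adjusted p = 0.108) and with library size in place of TMM scaling (adjusted p = 0.0515, edgeR).

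For Alyref against Control none of the 6 genes was called, beside 0.123% of all genes called higher. The nearest was KMT2D, 2.14 ± 0.53 higher (SE, adjusted p = 0.0516, edgeR's quasi-likelihood test), followed by SRRM2 at 1.41 ± 0.55 and SON at 1.17 ± 0.54, with adjusted p of 0.193 and 0.273. KMT2D passed with the lane set as a block (adjusted p = 0.0448, edgeR), with the replicate number as a block (adjusted p = 0.0158, edgeR), with DESeq2 (adjusted p = 0.0490) and with no filter on low counts (adjusted p = 0.0100, edgeR). SRRM2 passed with no filter (adjusted p = 0.0378, edgeR). For Nxf1 no gene at all was called by edgeR (0% of those tested), while 253 genes had an unadjusted p under 0.05 and DESeq2 called 1. Chtop was also set against Alyref directly, in a contrast that shares the Chtop libraries with the comparison above. AHNAK rose by 1.72 ± 0.34 (SE, adjusted p = 0.000902) and MKI67 by 0.85 ± 0.30 (adjusted p = 0.0474, both edgeR), where 9.97% of genes were called higher and 6.23% lower. SRRM2 at 1.26 ± 0.46 and SON at 1.11 ± 0.41 (SE) lay just outside the threshold, with edgeR adjusted p of 0.0529 and 0.0564. The AHNAK call was lost without Alyref replicate 3 or Chtop replicate 3 (edgeR adjusted p up to 0.0647), and the MKI67 call without Alyref replicates 2 or 3 or Chtop replicates 1 or 3 (edgeR adjusted p up to 0.287). DESeq2 called neither AHNAK (adjusted p = 0.0604) nor MKI67 (adjusted p = 0.293), and MKI67 was lost with the lane set as a block (adjusted p = 0.0807, edgeR) and with no filter (adjusted p = 0.528, edgeR). With library size in place of TMM scaling, which moved the median of all genes from -0.03 to -0.13, 167 genes were called higher and 181 lower instead of 323 and 202, and AHNAK was the member still called (adjusted p = 0.00348, edgeR).

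Tags in the giant exon were next set against tags in the other exons of the same transcripts. For a single gene this ratio is free of transcript level, whereas a sum over genes still depends on how abundant each transcript is. Isoforms that lack some of these exons, and background tags, can also enter the ratio of a single gene, and their part was not tested. Summed over the 8 genes, the giant exons held 79, 781 and 664 tags and the other exons 122, 1009 and 810 in the Alyref libraries, a log2 density ratio of -0.51 ± 0.18 (SD, n = 3). In Chtop the giant exons held 96, 1738 and 1565 tags and the other exons 80, 1334 and 1113, a ratio of 0.29 ± 0.12. Chtop density was thus higher in the giant exons than outside them in 3 of 3 libraries, and Alyref density lower in 3 of 3. The Chtop direction rested on SRRM2. Without that gene the Chtop ratio was -0.56 ± 0.07 (SD, n = 3) and below 0 in 3 of 3 libraries, and Alyref stood at -1.36 ± 0.34. Control without that gene was at -0.04 ± 0.27, and each Alyref, Chtop and Nxf1 library lay below each Control library. The Control ratios rest on few tags. With all genes these libraries held 7, 25 and 13 giant exon tags, of which SRRM2 gave 1, 10 and 7, and 9, 20 and 5 in the other exons. With the 8 genes weighted equally Chtop gave -0.07 ± 0.22, with 1 of 3 libraries above 0. Nxf1 gave -0.33 ± 0.36, with 1 library above 0 and the other two below. Control gave 0.34 ± 0.82 from 45 giant exon tags in all, with libraries from -0.43 to 1.21. The Chtop libraries lay within this range, whereas the Alyref libraries lay partly within and partly below it.

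All 3 Chtop ratios lay above all 6 of Alyref and Nxf1, by 0.71 on average, with p = 0.0119 in a two-sided exact permutation test, the smallest that 84 arrangements allow. The replicate 2 libraries alone gave a Chtop excess of 0.85 and the libraries of the other lane set 0.64, without overlap in either. After adjustment over the 12 comparisons of factors with each other the permutation p was 0.143, so the difference did not pass at that level. Alyref against the other factors differed by -0.50 (permutation p = 0.107, adjusted p = 0.257). Against Control no factor differed beyond the spread, and 3 libraries against 3 cannot reach an exact permutation p below 0.1. Most of the tags behind the Chtop difference were from SRRM2 and SON. Without SRRM2 the difference was 0.62 (exact permutation p = 0.0238), and over the other alternatives tried it lay between 0.65 and 0.82.

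**Figure D2:**
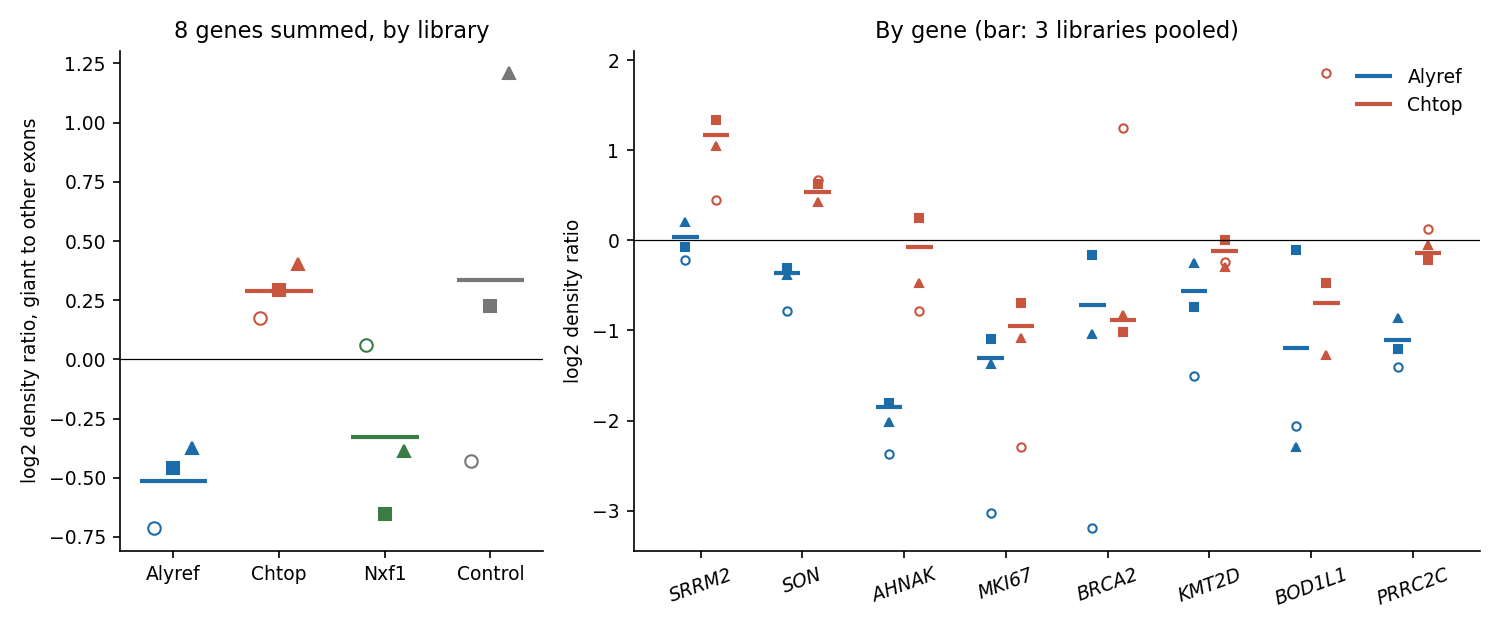
Log2 ratio of tag density in the giant exon to that in the other exons, with 0.5 tags added to each sum, by library for the 8 genes summed (left) and by gene for Alyref and Chtop (right, small symbols for libraries and bars for the 3 libraries pooled). The Chtop libraries sit at 0.17 to 0.40 and the Alyref libraries at -0.71 to -0.37.

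Gene by gene the pooled ratio was higher in Chtop than in Alyref for 7 of the 8 genes, BRCA2 being the exception. In SRRM2 the giant exon took 74.6% of exonic Alyref tags and 86.6% of exonic Chtop tags, for 74.1% of the exonic length. The SRRM2 library ratios were -0.22, -0.07 and 0.21 for Alyref and 0.44, 1.34 and 1.05 for Chtop, without overlap. In SON they were -0.78, -0.31 and -0.38 for Alyref and 0.67, 0.63 and 0.42 for Chtop, so that Alyref was below the other exons and Chtop above them in every library. The PRRC2C giant exon held 11.1% of exonic Alyref tags and 19.6% of exonic Chtop tags for 21.3% of the length, with library ratios of -1.40 to -0.86 and -0.22 to 0.12. KMT2D had pooled ratios of -0.56 in Alyref and -0.12 in Chtop, and its libraries overlapped. In MKI67 and BRCA2 both factors were sparser in the giant exon than outside it, at -1.31 and -0.95 in MKI67 and -0.72 and -0.89 in BRCA2. The AHNAK ratio of -1.85 in Alyref and -0.07 in Chtop rests on 11 tags of each factor in the other exons, which here include the noncoding part of the last exon. BOD1L1 gave -1.19 and -0.70.

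The same change was fitted per gene with edgeR on the tags of the longest coding exon and of the other exons, over 1796 genes with at least 20 tags in each. Where the longest coding exon was first or last, as in AHNAK and 663 other genes, only its coding part counted. Its noncoding part was counted with the other exons. From Alyref to Chtop, 2 of the 8 genes rose, SRRM2 by 1.11 ± 0.22 (SE, adjusted p = 0.000244) and SON by 0.92 ± 0.24 (adjusted p = 0.00507), by edgeR's quasi-likelihood test with Benjamini-Hochberg adjustment. PRRC2C changed by 0.96 ± 0.34 (SE, adjusted p = 0.0670) and AHNAK by 1.80 ± 0.82 (adjusted p = 0.171), both short of the threshold in edgeR. BOD1L1, KMT2D and MKI67 had values of 0.49 ± 0.68, 0.49 ± 0.27 and 0.36 ± 0.33 (SE), and BRCA2 of -0.14 ± 0.55. Across all genes tested 5.07% were called higher and 0.278% lower. No gene was called for any factor against Control by edgeR or DESeq2 (0% higher). Of the 1796 genes, 23, 36 and 37 had an unadjusted edgeR p under 0.05 for Alyref, Chtop and Nxf1. Each is a smaller share than that threshold alone would give.

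Both calls depended on the deep Chtop libraries. Without Chtop replicate 2 the SRRM2 change was 0.91 (adjusted p = 0.134) and that of SON 0.87 (adjusted p = 0.207), and without Chtop replicate 3 they were 1.14 (adjusted p = 0.0794) and 1.05 (adjusted p = 0.121, all edgeR). SON was also lost without Alyref replicate 3 (edgeR adjusted p = 0.0624) and with DESeq2 (adjusted p = 0.152). Over these omissions the number of genes called across the table fell from 96 to between 6 and 25.

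The rise was not particular to the 8 genes. Their median change from Alyref to Chtop was 0.71, with 7 of 8 above 0, beside a median of 0.62 and 1355 of 1796 above 0 over all genes tested. SRRM2 ranked 466th of 1796 and SON 623rd. Among the other genes whose longest coding exon was internal, the median rose with the length of that exon, from 0.21 in 344 genes under 500 nt to 0.67 in 337 genes of 500 to 999 nt and 0.94 in 365 genes of 1000 to 2999 nt. In the 79 genes of 3000 nt or more it was 0.66, with 11 called higher and none lower. Differences between length classes were not tested. The 5 other genes with such an exon and the most exonic tags spread widely. MUC16, a cell surface mucin, rose by 1.09 ± 0.26 (SE, adjusted p = 0.00220, edgeR) over an exon of 21693 nt. The transcriptional repressor SPEN gave -0.13 ± 0.25 and the cytoskeletal linkers DST and MACF1 gave 0.08 ± 0.32 and 0.55 ± 0.42 (SE), none of which passed. KMT2A, a histone methyltransferase, gave 0.21 ± 0.27 (SE) and did not pass either.

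**Figure D3:**
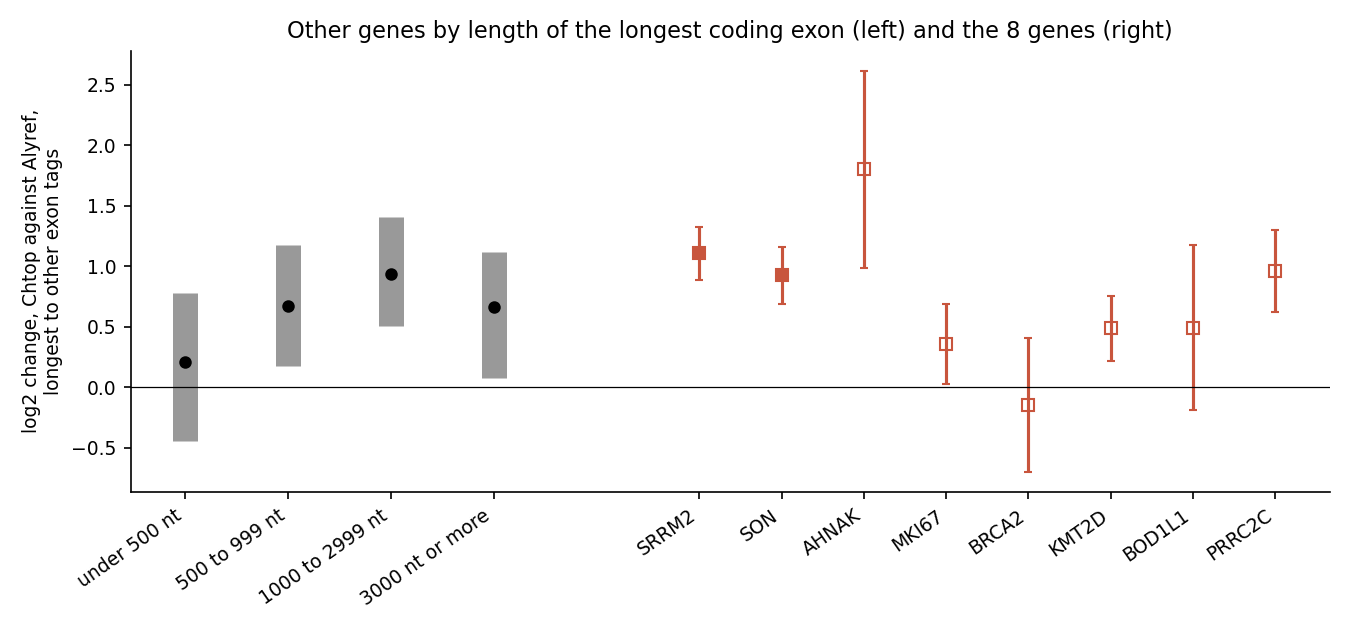
Log2 change from Alyref to Chtop in the ratio of longest to other exon tags, from the edgeR fit. Grey bars span the quartiles and dots mark the median of other genes whose longest coding exon is internal, by its length, and squares with SE bars mark the 8 genes, filled where called. The medians are 0.21, 0.67, 0.94 and 0.66 from the shortest to the longest class, and SRRM2 and SON are the filled squares.

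Distance to the exon ends was read next. Within 100 nt of the 3′ end, over the 7 genes with a following exon, Alyref left 1, 14 and 25 tags, where the density of the exon interior would give 1.47, 14.9 and 12.7. Chtop left 5, 17 and 15 where the interior density would give 1.80, 33.5 and 30.2. Both deep Chtop libraries thus lay below their interior density near the end, at log2 ratios of -0.94 and -0.96, and the shallow library was at 1.60 on 5 tags. With all 3 libraries pooled, Chtop density relative to the interior was 0.428 in the last 50 nt, 0.703 at 51 to 100 nt, 0.458 at 101 to 200 nt and 0.804 at 201 to 500 nt. The Alyref profile was 0.963, 1.79, 1.13 and 0.951 over the same steps, highest at 51 to 100 nt from the end, where 26 tags fell against 14.5 at interior density.

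Nxf1 left 1, 3 and 8 tags in the last 100 nt, against 0.573, 1.64 and 1.02 at interior density, and 6 of these 12 tags lay in SRRM2. Control left none, which at 0.143 to 0.451 tags expected per library is too few to read. In exact permutation tests none of the 3 factors differed from the other factors at the 3′ end, with unadjusted p at 0.583 in Alyref, 0.202 in Chtop and 0.0714 in Nxf1. Other internal coding exons were described in the same way, without a test. In 713 exons of 1000 to 2999 nt of other genes the last 100 nt stood at 0.17 ± 0.17 relative to the interior in Alyref and -0.70 ± 0.08 in Chtop (log2, SD, n = 3). In 122 exons of 3000 nt or more they stood at 0.49 ± 0.12 and -0.12 ± 0.40. Within the 8 genes, 14 other internal coding exons of at least 300 nt gave 0.10 ± 0.98 in Alyref and -1.50 ± 1.05 in Chtop.

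At the 5′ end, the first 100 nt of the 8 giant exons held 3, 15 and 8 Alyref tags, against 1.17, 11.7 and 9.84 at interior density, and 0, 23 and 10 Chtop tags against 1.42, 26.5 and 23.995. Nxf1 and Control left no tag there, where fewer than 1.3 per library would be expected, so their ratios are set by the added 0.5 tags. The exact permutation test gave p = 0.0476 for Alyref exceeding the others, by a log2 value of 1.39, but adjusted p = 0.190, and with 1 tag added the permutation p was 0.190. In pooled Chtop libraries the first 50 nt were at 0.540 of interior density and the first 51 to 100 nt at 0.732, and from 101 nt inward both deeper factors were between 0.836 and 1.28.

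**Figure D4:**
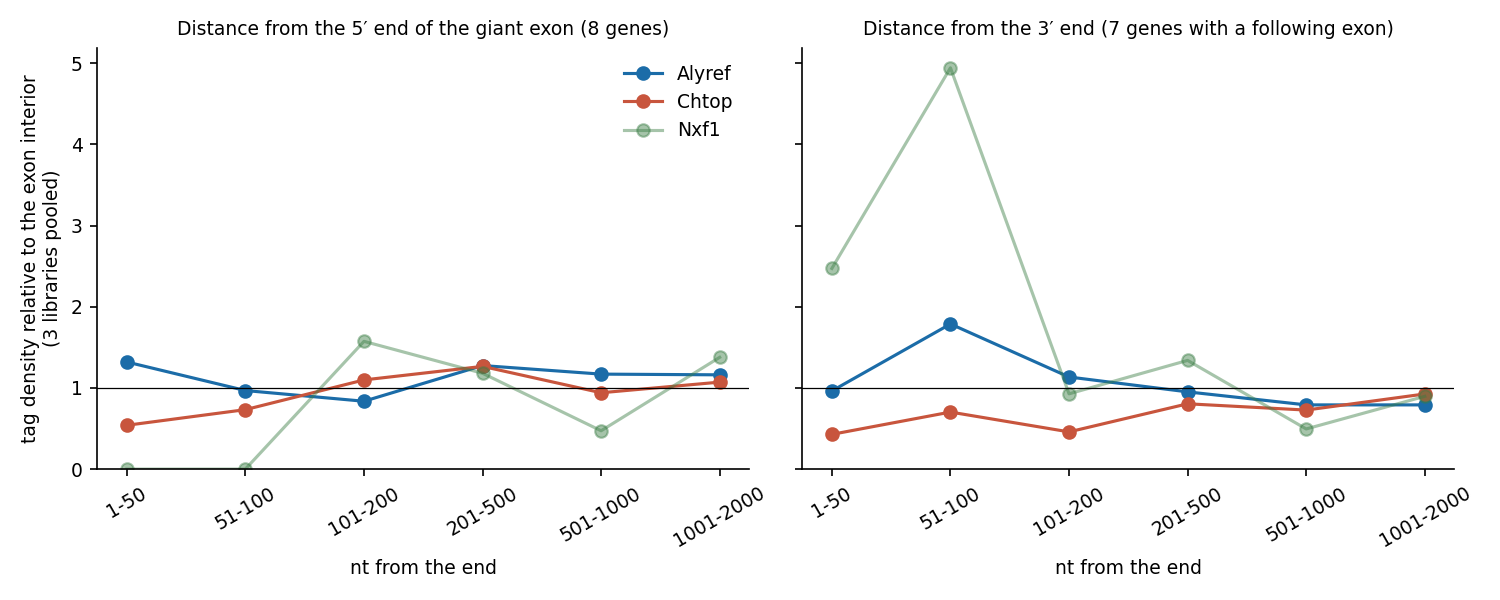
Tag density by distance from the 5′ end (left) and 3′ end (right) of the giant exons, relative to the interior of the same exons (line at 1), with the 3 libraries of a factor pooled. Chtop is lowest in the last 50 nt, Alyref highest at 51 to 100 nt from the 3′ end, and the pale Nxf1 line rests on 12 tags in the last 100 nt.

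Away from the ends tags ran through the whole exon. The SRRM2 exon was cut into 3 equal parts, which from 5′ to 3′ took 36.5% ± 1.72, 29.9% ± 3.44 and 33.5% ± 2.24 of Alyref tags and 33.4% ± 2.77, 36.9% ± 2.64 and 29.7% ± 1.62 of Chtop tags (SD, n = 3). In SON they took 34.97%, 35.8% and 29.2% of Alyref tags and 27.3%, 38.2% and 34.5% of Chtop tags. In windows of 250 nt, each of the 26 SRRM2 windows and each of the 23 SON windows held Alyref and Chtop tags. The fullest SRRM2 window held 47 Alyref tags, at 2001 to 2250 nt, against a median of 31.0, and 117 Chtop tags, at 2751 to 3000 nt, against 68.0. In SON the fullest windows were neighbours, with 31 Alyref tags at 3751 to 4000 nt and 71 Chtop tags at 4001 to 4250 nt.

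The profiles were compared across windows by Pearson's r, over 26 windows in SRRM2 and 23 in SON. In SRRM2, r was 0.50 between Alyref 2 and Chtop 2 and 0.55 between Alyref 3 and Chtop 3, beside 0.68 between both deep Alyref libraries and 0.74 between both deep Chtop libraries. In SON it was 0.64 and 0.56 across factors and 0.63 and 0.74 within Alyref and within Chtop. With the 3 libraries of each factor pooled, r across factors was 0.64 in SRRM2 and 0.76 in SON. These windows share an RNA and its base composition. Between tags and the share of uracil in a window, r was 0.61 in SRRM2 and 0.74 in SON for Chtop, and 0.31 and 0.50 for Alyref, which had fewer tags per window.

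**Figure D5:**
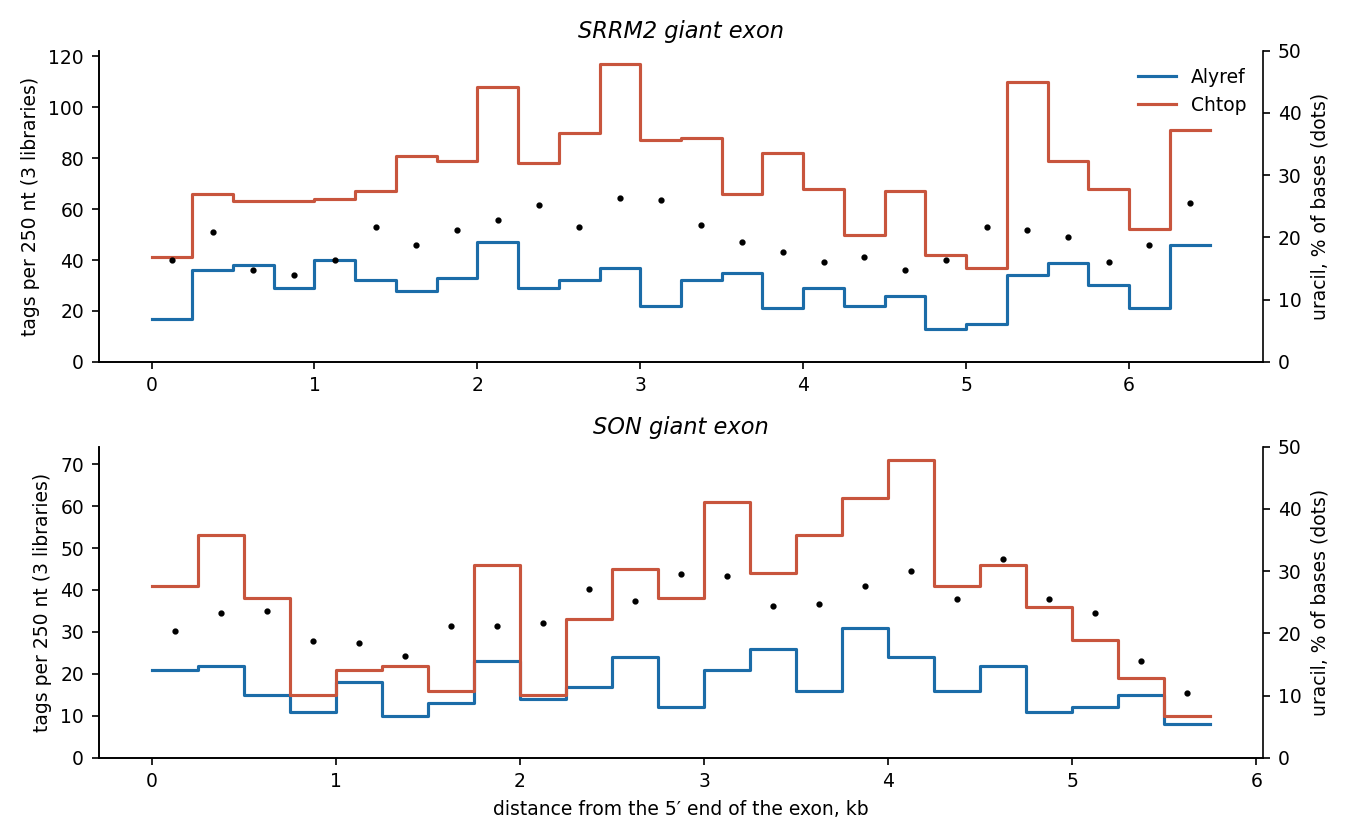
Tags per 250 nt along the giant exons of SRRM2 and SON, summed over the 3 libraries of Alyref and of Chtop (lines, left axis from 0), and uracil content of each window (dots, right axis). Both factors cover every window, with the fullest at 47 and 117 tags in SRRM2 and at 31 and 71 in SON.

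Single bases were rarely hit more than a few times. A factor tag lay on 30.9% of SRRM2 giant exon bases and 18.6% of those in SON, and on 8.78% in KMT2D, 6.11% in PRRC2C, 2.89% in MKI67, 1.30% in BRCA2, 0.987% in AHNAK and 0.782% in BOD1L1. In SRRM2 579 bases were hit in at least 2 of the 9 factor libraries, and in SON 183. The fullest base held 6 tags in SRRM2, 1 in each of 3 Alyref and 3 Chtop libraries, and 4 tags in SON. Of the 140 SRRM2 bases with at least 3 factor tags 93 were uracil, as were 27 of 33 in SON.

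The sequences around the fullest bases are shown for the base at the crosslink. They are given from 10 nt before to 10 nt after the crosslinked base, which is in capitals, 5′ to 3′ on the RNA strand in genomic letters of hg19. The positions in the names count from the 5′ end of the giant exon, and equal counts were taken in 5′ to 3′ order. The SRRM2 windows lie at chr16:2812430-2812450, chr16:2812800-2812820 and chr16:2813309-2813329, the SON windows at chr21:34922132-34922152, chr21:34924390-34924410 and chr21:34925512-34925532, the KMT2D window at chr12:49427586-49427606, the PRRC2C window at chr1:171509516-171509536 and the MKI67 window at chr10:129902903-129902923.
SRRM2 base 879: ggtctcgtagTagatcaccag
SRRM2 base 1249: gcggagcaggTctctctcttc
SRRM2 base 1758: aaagaagccaTtctggctcct
SON base 361: ccacacatctTagaaactctg
SON base 2619: aggccatgatCcctacagact
SON base 3741: atctacatccTtgttggttcc
KMT2D base 152: ctcaccaagcTccctggtcag
PRRC2C base 417: aaggaaggctTtatacgatct
MKI67 base 4775: taagtgatgaGaaaaatatca
The SRRM2 bases held 6, 5 and 5 factor tags and the SON bases 4 each. The KMT2D, PRRC2C and MKI67 bases held 3 each, those of MKI67 all from Chtop. No Control tag lay on any of these bases. At 7 of the 9 bases the crosslink is on uracil.

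Over all tags of the 8 giant exons, uracil made up 45.6% ± 10.96 of crosslinked bases in Alyref, 45.03% ± 4.31 in Chtop, 47.9% ± 5.05 in Nxf1 and 37.7% ± 11.95 in Control (SD, n = 3), where it makes up 20.6% of the bases themselves. The deep libraries were tighter, at 38.3% and 40.4% in Alyref replicates 2 and 3 and 42.5% and 42.6% in Chtop. In the other exons of the same transcripts, which hold 23.1% uracil, the shares were 45.5% ± 2.53 in Alyref and 49.1% ± 1.52 in Chtop (SD, n = 3). UV crosslinking itself favours uracil, and the part of this in the shares was not tested beyond the Control value.

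Repeats limit some of these exons, since reads were kept only where they mapped uniquely. Of the bases of the giant exon, 74.0% in AHNAK, 87.7% in MKI67 and 94.0% in SON directly precede a 25-mer found once in the genome, and 97.2% or more in the other genes. In SON, Chtop tags fell at 151 per kb on unique bases and 81.2 per kb on the rest. In AHNAK they fell at 8.11 and 6.23 per kb, and in MKI67 at 17.5 and 17.9 per kb. The part of the mapping in the levels of these exons was not tested. On unique bases alone, Chtop exceeded the other factors in the giant to other exon ratio by 0.72.

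Introns held few tags in these genes. Summed over the 8 genes, introns gave 24, 182 and 189 Alyref tags, 10, 137 and 86 Chtop tags, 2, 40 and 53 Nxf1 tags and 3, 14 and 15 Control tags over 370959 nt. The giant exons were denser than introns by 4.68 ± 0.21 in Alyref, 6.49 ± 0.49 in Chtop, 4.43 ± 1.78 in Nxf1 and 3.38 ± 0.68 in Control (log2, SD, n = 3). Each Alyref and each Chtop library exceeded each Control library, by 1.30 and 3.11 on average, at the smallest exact permutation p that 3 against 3 allows, 0.1. Without SRRM2 the Alyref excess was 0.73 (exact permutation p = 0.5) and the Chtop excess 2.58 (exact permutation p = 0.1). Against only the introns next to the giant exon they were 2.38 (exact permutation p = 0.2) and 3.32 (exact permutation p = 0.1). Chtop exceeded the other factors by 1.93 with a permutation p of 0.0476 and an adjusted p of 0.190, and Nxf1 replicate 1, with 2 intronic tags, lay among the Chtop libraries. Within the lane sets the Chtop excess was 2.07 and 1.87.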

How the data were processed

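The data were iCLIP libraries of Alyref, Chtop, Nxf1 and Control, 3 each. The deposited values are counts, namely tags per crosslinked base and strand. To make them the authors removed phiX reads (Bowtie 1.1.2), handled random barcodes (UMI-tools 0.5.3), trimmed reads, aligned them to hg19 (STAR 2.4.2a) keeping unique matches, merged lanes and collapsed duplicates, with the base before a read, or a deletion in it, as the crosslink. The effect of another choice of crosslinked base on positions was not tested. Files pooled by group were not used here, and 0 columns of per-sample values were left out otherwise.

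Genes and exons came from GENCODE release 44, lifted to the files' own build (GRCh37). Only tags on the gene strand entered, and tags in more than 1 gene were left out of gene counts. Density ratios were formed per library with 0.5 tags added to each sum and compared with two-sided exact permutation tests over libraries, on the absolute difference of means, in 2 families of 12 (factor against other factors and factor against Control) with Benjamini-Hochberg adjustment. Genes were tested with edgeR 4.0.16 in R 4.3.3 (quasi-likelihood, TMM, filterByExpr, 12 libraries in 1 fit), and the longest exon against other exons with a term for each library, at a threshold of 0.05 on the adjusted p. DESeq2 1.42.0 was an alternative, and the set of sequencing lanes as a block was an alternative chosen after seeing the data. Both fits were tested on simulated counts. Windows, bases, uracil and length classes are descriptions. The 8 genes and the lists were chosen with earlier results of these data known. Named comparison genes were the 5 others with the most exonic tags among those with an internal longest coding exon of at least 3000 nt.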

Additional observations from a re-analysis of the deposited data

Results flagged for a closer look

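Groups of 3 libraries were too small for a test of single outlying samples. In 4 results Chtop differed from Alyref in a direct edgeR test, though only MKI67 had also been called against Control on the same measure, in Chtop. SRRM2 and SON had been called for Chtop against Control over the whole gene but not in the exon ratio. Over the whole gene these were AHNAK, with a log2 change of 1.72 from Alyref to Chtop, and MKI67, with 0.85. In the ratio of giant to other exon tags they were SRRM2, with 1.11, and SON, with 0.92. The AHNAK difference was lost without Alyref replicate 3 or Chtop replicate 3 (edgeR adjusted p up to 0.0647) and with DESeq2 (adjusted p = 0.0604). The MKI67 difference was lost with DESeq2 (adjusted p = 0.293). The values of the other three without each library stand with their results or in the range below.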

How the results depend on the processing

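As single libraries were left out, genes called ranged from 108 to 592 for Chtop against Control, from 82 to 603 for Chtop against Alyref, from 0 to 53 for Alyref against Control and from 0 to 1 for Nxf1 against Control, and from 6 to 105 for the exon ratio of Chtop against Alyref. Other settings gave, for Alyref against Control, 27 genes with library size only, 37 with no filter, 13 with DESeq2, 30 with the lane set as a block and 73 with the replicate block in place of 8. For Chtop against Control they gave 318 with no filter and 226 with DESeq2 in place of 486. For Nxf1 against Control library size only, no filter and DESeq2 each gave 1 and the replicate block 2 in place of 0. For Chtop against Alyref they gave 348 with library size only, 304 with no filter, 348 with the lane set as a block and 72 with DESeq2 in place of 525, and for the exon ratio 23 with DESeq2 in place of 96. With library size only the median of all genes moved from 0.21 to 0.32 for Alyref against Control and from 0.16 to -0.02 for Nxf1. DESeq2 split the Chtop against Control calls as 93 higher and 133 lower, where edgeR gave 325 and 161.

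In the per-library ratios, the Chtop excess in giant over other exons passed its unadjusted permutation threshold in each alternative tried, in the replicate block (p = 0.0370, exact permutation) and with the lane set as a block (p = 0.0222, exact permutation, the smallest its 45 arrangements allow). Alyref fell below the other factors when genes were weighted equally, by -0.84 (permutation p = 0.0238), where Nxf1 turned to 0.030. Without SRRM2 the Alyref value was -0.58 (permutation p = 0.0476). Chtop against Control turned from -0.04 to 0.0032 without AHNAK, 0.024 on unique 25-mers, 0.16 with exons of all isoforms and 0.28 with middle coding exons, and ran from -0.43 to 0.39 as libraries were left out. The differences from Control without SRRM2 were -0.53 in Chtop, -1.33 in Alyref and -0.97 in Nxf1. Each had an exact permutation p of 0.1, the smallest possible, and the Control side rested on few tags. At the 3′ end Nxf1 against the other factors passed with 1 tag added (1.82) and on unique 25-mers (1.82) and ran from 1.11 to 2.09 without single libraries. Alyref against the other factors turned to 0.012 in the window of 75 to 24 nt upstream of the end, and against Control to 0.25 over the last 200 nt. Nxf1 against Control turned to -0.52 with genes weighted equally and to -0.38 in that window. At the 5′ end the Alyref difference was 0.82 with 1 tag added, 0.21 over the first 200 nt and -0.14 with genes weighted equally, kept 1.39 but lost its call in the replicate block and with the lane set as a block (exact permutation p = 0.0667), and ran from 0.90 to 1.79 without single libraries. Nxf1 there turned to 0.29, 0.076 and 1.67 under the first 3 of these settings. For introns the Chtop difference was 1.22 against the introns next to the giant exon, 1.93 without a call in the replicate block or with the lane set as a block (exact permutation p = 0.0889), and 1.62 to 2.31 without single libraries. Single genes turned sign where they lay near 0: AHNAK for Alyref against Control with no filter (0.26), PRRC2C for the same with DESeq2 (-0.14) and without single libraries (range -0.10 to 0.45), BRCA2 in the exon ratio with DESeq2 (0.13) and without single libraries (range -0.41 to 0.41), and BOD1L1 without single libraries (range -0.45 to 1.69). In each case the cause was not tested.

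The replicate number coincides in part with the sequencing lanes, since all replicate 2 libraries share a set of HiSeq lanes and replicates 1 and 3 share the other. Beyond that no label says that the same number marks a shared culture or day, and the deviations of same-numbered libraries correlated above 0.1 in 6 of 18 pairs (median 0.04). Those of differently numbered libraries did so in 5 of 36 pairs (median -0.02). With the replicate block SRRM2 and SON passed in the whole-gene contrast of Chtop against Alyref (edgeR adjusted p = 0.0263 and 0.0280) and MKI67 did not (0.0561). Depth limits the ends most, because Nxf1 and Control libraries would hold fewer than 2 tags in the last or first 100 nt at interior density, and Control gave 45 giant exon tags in all.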
